A study of Rattus norvegicus with 6 samples.

Results

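The genes described here are 10 components of the Notch pathway: the receptors Notch1, Notch2 and Notch3, the ligands Jag1, Jag2 and Dll1, the DNA-binding factor Rbpj, and the target genes Hes1, Hey1 and Hey2. They were taken by symbol from tables of 18746 genes with read counts and 18674 genes with FPKM values, where FPKM is a read count scaled by transcript length and by the mapped reads of the library. The symbol Rbpj stands on 2 rows, so that the 10 genes had 11 rows. Between siNQO1 and siCtrl cells, Hes1 rose by 23.4% and Rbpj fell to 76.1% of its siCtrl level, and no other member passed the test.

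In the Notch pathway, a ligand of the Jagged or Delta-like family on one cell binds a Notch receptor on a neighbouring cell. The receptor is then cut by proteases, and its intracellular domain enters the nucleus, where it joins RBPJ and Mastermind-like coactivators at target genes. In the absence of this domain RBPJ recruits corepressors. The best known targets encode the HES and HEY basic helix-loop-helix repressors, and in the neural crest, from which adrenal chromaffin cells and Schwann cells descend, Notch signaling is known to favour glial over neuronal fates.

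The study measured the transcriptome of rat PC12 cells, a line derived from an adrenal pheochromocytoma, after knockdown of Nqo1, which encodes the quinone reductase NQO1. The 3 siNQO1 samples were transfected with an siRNA against NQO1 and the 3 siCtrl samples with a nontargeting siRNA, all by lipofection in RPMI-1640 medium with serum, while the sample labels call the first agent an shRNA and the second a control plasmid. Polyadenylated RNA was sequenced with paired reads, and the harvest time of 48 h is given for RT-qPCR only. The paper calls the samples of a group biological replicates, without stating that each was a culture of its own, and the p-values reflect the variation among these libraries.

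Reads counted in genes ranged between 32789228 and 39467230 in siNQO1 libraries and between 28873824 and 35235040 in siCtrl libraries. Nqo1 had 80.78, 75.2 and 77.72 FPKM in siNQO1 cells, against 368.62, 320.51 and 345.29 FPKM in siCtrl cells, or 22.8% of the siCtrl level. Of 11 listed markers of chromaffin and PC12 cells, 7 (among them Th, Ddc, Chga, Chgb and Phox2a) were below 0.1 FPKM in every library, and only Scg2, which encodes secretogranin II, was above 1 FPKM in all. The 6 listed markers of Schwann cells and glia summed to 383–390 FPKM in siNQO1 cells and 428–492 FPKM in siCtrl cells, most of it from Sox10 and S100b, whereas Mbp was below 0.1 FPKM. The RNA therefore went against the label at the defining catecholamine and chromogranin genes, and the cells are called siNQO1 and siCtrl cells below. Library siCtrl replicate 2 stood apart, since its counts differed from those of the other siCtrl libraries by a chi-square per degree of freedom of 43.1 and 29.0, against 10.8 between those libraries and 5.60–9.13 within siNQO1. In log2 counts scaled by library size, its Pearson correlation with siNQO1 replicates 1, 2 and 3 was 0.99026, 0.99034 and 0.98944. With siCtrl replicates 1 and 3 it was 0.98621 and 0.98907.

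Promoter sequences show where the RBPJ recognition core lies in these genes. RefSeq windows of 300 bases, with 250 before and 50 after an annotated start site on the GRCr8 build, were found for 9 of the 10 members in 11 windows, and Hey1 was not among them. The core searched was TGGGAA on either strand, which occurs at least once in 25.68% and at least 2 times in 3.85% of 33469 RefSeq promoter windows of the same length. It was present in 6 windows of 5 members. The 4 windows shown are those of the 3 members with the smallest p-values and of Hey2, a target gene with cores on both strands. They lie at chr11:84212996-84213295 (minus strand) for Hes1, at chr14:61615389-61615688 (minus strand) for the second of 2 overlapping windows of Rbpj, at chr3:29721564-29721863 (minus strand) for Notch1 and at chr1:28640850-28641149 (plus strand) for Hey2. Capitals mark the core, read as TGGGAA on the printed strand or TTCCCA where it lies on the other one.
Hes1: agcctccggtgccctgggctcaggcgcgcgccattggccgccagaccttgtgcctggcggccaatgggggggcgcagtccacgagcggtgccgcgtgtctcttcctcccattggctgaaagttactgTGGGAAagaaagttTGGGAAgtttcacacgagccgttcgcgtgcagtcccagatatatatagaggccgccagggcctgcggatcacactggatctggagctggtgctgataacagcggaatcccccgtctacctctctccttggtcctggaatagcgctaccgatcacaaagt
Rbpj: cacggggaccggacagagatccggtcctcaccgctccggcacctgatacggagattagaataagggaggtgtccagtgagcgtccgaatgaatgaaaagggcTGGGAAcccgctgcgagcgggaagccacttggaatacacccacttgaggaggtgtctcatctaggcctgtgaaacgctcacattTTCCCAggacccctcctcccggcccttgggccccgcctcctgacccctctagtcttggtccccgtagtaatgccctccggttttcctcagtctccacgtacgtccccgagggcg
Notch1: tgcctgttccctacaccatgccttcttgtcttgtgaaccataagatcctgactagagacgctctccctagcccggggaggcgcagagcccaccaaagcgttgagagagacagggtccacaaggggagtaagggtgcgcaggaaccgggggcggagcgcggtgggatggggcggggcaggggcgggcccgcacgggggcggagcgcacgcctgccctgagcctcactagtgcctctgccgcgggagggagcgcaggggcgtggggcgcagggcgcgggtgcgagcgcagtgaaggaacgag
Hey2: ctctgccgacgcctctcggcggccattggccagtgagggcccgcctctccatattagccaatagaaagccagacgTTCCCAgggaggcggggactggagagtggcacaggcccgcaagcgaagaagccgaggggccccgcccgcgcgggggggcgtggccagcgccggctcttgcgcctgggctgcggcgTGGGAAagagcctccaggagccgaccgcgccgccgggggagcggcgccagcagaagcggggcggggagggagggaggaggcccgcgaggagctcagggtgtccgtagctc

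The Hes1 window held 2 cores on the printed strand, whose first bases lay 123 and 109 bases before the start site with 8 bases between them. The first of these read GTGGGAA, a longer form that contains the core and occurs in 6.29% of all windows. Of the 11 member windows, 3 held this longer form, those of Hes1, Hey2 and Dll1. In the Rbpj window the cores lay 148 and 64 bases before the start site on opposite strands, and the other Rbpj window begins within this one and shares the second core. Hey2 had cores 175 and 60 bases upstream, and Dll1 had them 185 and 82 bases upstream. The window of Notch3 held 1 core downstream of the start site, and Notch1, Notch2, Jag1 and Jag2 had none within these windows. A further motif is the N box CACNAG, to which HES1 is known from the mouse to bind at its own promoter. It occurred 4 times in the Hes1 window, 4 times in the Notch1 window and 1 time in the Notch3 window. It was thus present in 3 of the 11 member windows, whereas 43.12% of all windows held it at least once. At least 2 matches occurred in 11.23% of all windows, and the share with 4 or more was not counted. No N box match overlapped a core in the window of Hes1. These matches describe letters and not occupied sites.

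**Figure D1:**
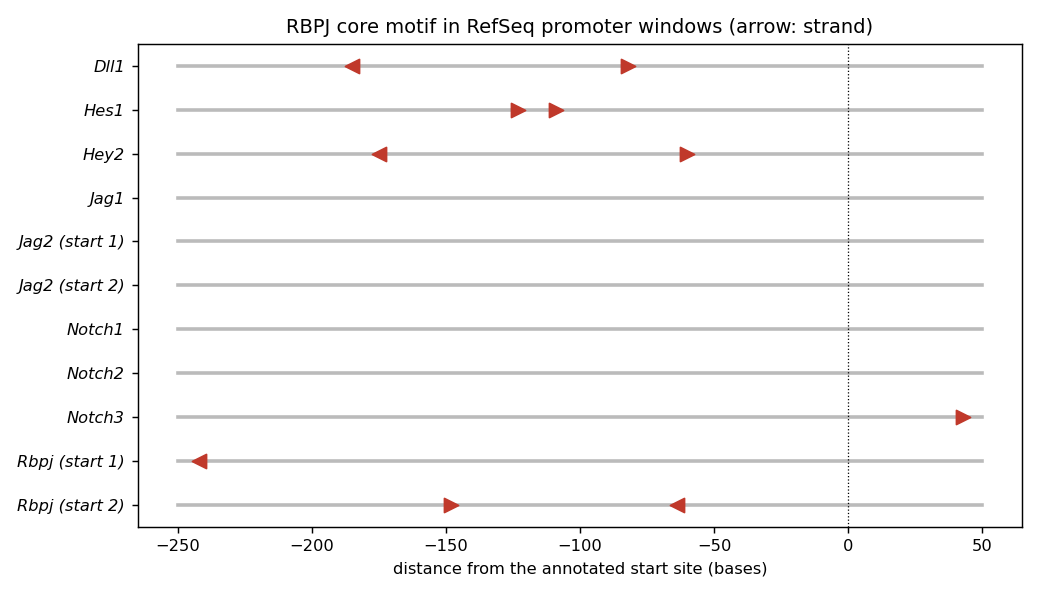
Positions of the RBPJ core in the 11 RefSeq promoter windows of 9 members, as distance in bases from the annotated start site. Arrowheads point right for a core on the gene's strand and left for the other strand. Hes1 is the window with cores 123 and 109 bases upstream on 1 strand, and Notch1, Notch2, Jag1 and Jag2 have no arrowhead.

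The receptors were represented mostly by Notch1. Notch1 (ENSRNOG00000019322, chromosome 3) had 8.71, 8.81 and 8.56 FPKM in siNQO1 cells, against 10.2, 9.03 and 9.82 FPKM in siCtrl cells. Every siNQO1 library lay below every siCtrl library, but the difference was small. The log2 fold change was -0.14 with a standard error of 0.06 and a 95% interval of -0.28 to -0.01, and in the edgeR quasi-likelihood test with Benjamini-Hochberg adjustment over all genes tested the adjusted p was 0.150, so that Notch1 did not pass. It passed only when siCtrl replicate 2 was left out (log2 fold change -0.20, adjusted p = 0.00465), where 33.3% of all genes passed, and in limma voom with sample quality weights (-0.17, adjusted p = 0.0125), where 31.6% did. In bulk RNA such as this, fewer cells that express a gene cannot be told apart from less RNA per cell.

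Notch2 (ENSRNOG00000018835, chromosome 2), the second broadly expressed receptor, was much lower than Notch1 in FPKM. It had 1.21, 1.25 and 1.28 FPKM in siNQO1 cells, against 1.43, 1.30 and 1.24 FPKM in siCtrl cells, and the groups overlapped. Its log2 fold change was -0.07 with a 95% interval of -0.29 to 0.14 (adjusted p = 0.652 by edgeR). Notch3 (ENSRNOG00000004346, chromosome 7), a receptor known from mural cells, had 1, 0 and 2 reads in siNQO1 libraries and 0, 0 and 1 reads in siCtrl libraries. These counts are at or under the floor of 3 reads per library, and no fold is given. Of the summed FPKM of the 3 receptors, Notch1 took 87.4% ± 0.467 in siNQO1 cells and 88.0% ± 0.724 in siCtrl cells (SD, n = 3 each), a difference of -0.54 percentage points (exact permutation test, two-sided, p = 0.50). Its adjusted p over the 6 shares compared was 1.00, and 3 libraries against 3 cannot give a p below 0.10.

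Among the ligands, Jag1 and Dll1 were present at similar levels and Jag2 was nearly absent. Jag1 (ENSRNOG00000007443, chromosome 3), a Jagged-type ligand, had 1.36, 1.08 and 1.15 FPKM in siNQO1 cells, against 1.05, 1.17 and 1.14 FPKM in siCtrl cells. Only siNQO1 replicate 1 lay above the siCtrl range. The log2 fold change was 0.11 with a 95% interval of -0.18 to 0.39 (adjusted p = 0.615 by edgeR), and without siNQO1 replicate 1 it was -0.02.

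Dll1 (ENSRNOG00000059984, chromosome 1), a Delta-type ligand, had 1.45, 1.33 and 1.20 FPKM in siNQO1 cells, against 1.20, 1.25 and 1.38 FPKM in siCtrl cells. The ranges overlapped over most of their width. The log2 fold change was 0.07 with a 95% interval of -0.23 to 0.36 (adjusted p = 0.774 by edgeR), and it too was -0.02 without siNQO1 replicate 1. Jag2 (ENSRNOG00000013927, chromosome 6), the second Jagged ligand, had 2, 2 and 10 reads in siNQO1 libraries and 3, 0 and 10 reads in siCtrl libraries, and was not tested. Dll1 made up 52.1% ± 2.55 of ligand FPKM in siNQO1 cells and 52.7% ± 1.03 in siCtrl cells (exact permutation test, two-sided, p = 0.70, n = 3 each). For Jag1 the shares were 46.9% ± 1.99 in siNQO1 cells and 46.3% ± 2.00 in siCtrl cells (exact permutation test, two-sided, p = 0.80, n = 3 each), and the adjusted p of both was 1.00.

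Rbpj, which encodes the factor that brings the receptor's intracellular domain to DNA, was the member that fell. The row on chromosome 14 (ENSRNOG00000046327) had 12.42, 12.25 and 12.99 FPKM in siNQO1 cells, against 14.44, 18.96 and 16.53 FPKM in siCtrl cells. The siNQO1 libraries lay close together and below every siCtrl library, and siCtrl replicate 2 was the highest of all. The mean was 12.6 ± 0.388 FPKM in siNQO1 cells and 16.6 ± 2.26 FPKM in siCtrl cells (SD, n = 3 each). This is a log2 fold change of -0.39 with a standard error of 0.09 and an adjusted p of 0.0269 by edgeR. Without siCtrl replicate 2 the log2 fold change was -0.30 (adjusted p = 0.00361). The test was no longer passed without siNQO1 replicate 1, 2 or 3 (adjusted p = 0.0946, 0.128 and 0.0973) or without siCtrl replicate 3 (0.0886), and it was passed in the other 14 of 18 alternative settings.

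The second row named Rbpj, on chromosome 5 (ENSRNOG00000007797), had no read in siNQO1 libraries and 3, 3 and 0 reads in siCtrl libraries. It did not enter the test. Since only uniquely mapped reads were used and the 2 rows carry the same symbol, reads that fit both places could have been lost from both, and the values of Rbpj are uncertain to that extent.

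Hes1, which encodes a repressor of neuronal differentiation genes and is a direct Notch target in many tissues, was the member that rose. Hes1 (ENSRNOG00000001720, chromosome 11) had 21.79, 23.08 and 23.89 FPKM in siNQO1 cells, against 18.17, 18.89 and 19.17 FPKM in siCtrl cells. All siNQO1 libraries lay above all siCtrl libraries. The mean was 22.9 ± 1.06 FPKM in siNQO1 cells and 18.7 ± 0.516 FPKM in siCtrl cells (SD, n = 3 each). As a log2 fold change this is 0.30, with a standard error of 0.06 and an adjusted p of 0.0196 by edgeR. It stayed between 0.26 and 0.33 in every alternative setting, and was 0.30 without siCtrl replicate 2 (adjusted p = 0.00343). The adjusted p was above 0.05 without siNQO1 replicate 1, 2 or 3 (0.0553, 0.0989 and 0.0943) and without siCtrl replicate 1 (0.0598), and below it in the other 14 of 18 settings.

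The HEY genes, which encode HES-related repressors known from the heart and vessels, were near the lower end of detection. Hey1 (ENSRNOG00000011593, chromosome 2) had 12, 11 and 26 reads in siNQO1 libraries, against 7, 8 and 10 reads in siCtrl libraries. In FPKM these were 0.33, 0.31 and 0.61 in siNQO1 cells, against 0.22, 0.21 and 0.26 in siCtrl cells. The groups did not overlap, yet siNQO1 replicate 3 was nearly 2 times the other siNQO1 libraries. The log2 fold change was 0.86 with a 95% interval of -0.08 to 1.80 (adjusted p = 0.209 by edgeR), and without siNQO1 replicate 3 it was 0.46 (adjusted p = 0.568).

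Hey2 (ENSRNOG00000013364, chromosome 1) had 28, 35 and 28 reads in siNQO1 libraries, against 15, 15 and 33 reads in siCtrl libraries. The high siCtrl library was replicate 3, within the siNQO1 range. The log2 fold change was 0.46 with a 95% interval of -0.34 to 1.26 (adjusted p = 0.429 by edgeR). At these read numbers the interval of each HEY gene includes both no difference and a change of more than 2-fold, so that a change of Hey1 or Hey2 was not resolved at this depth.

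**Figure D2:**
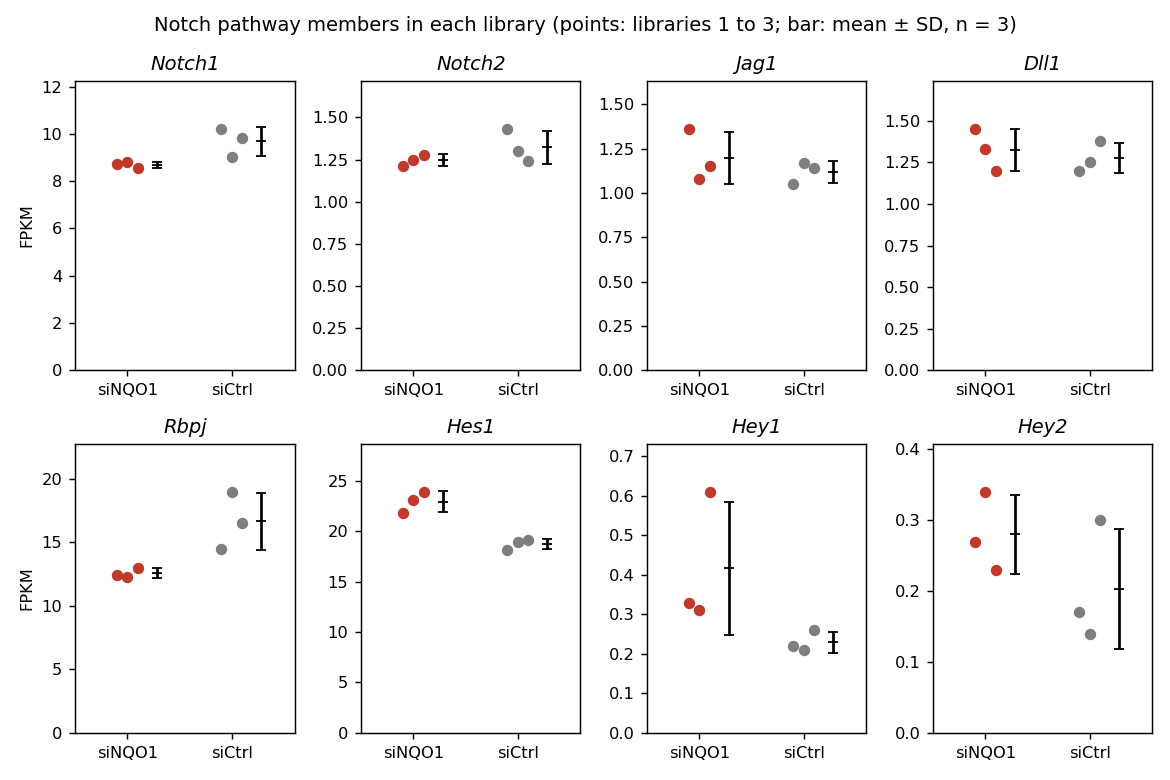
FPKM of the 8 members tested in each library, with siNQO1 in red on the left and siCtrl in grey on the right of each panel, and the mean ± SD of 3 libraries beside the points. Hes1 lies at 21.79 or above in siNQO1 cells and at 19.17 or below in siCtrl cells, and Rbpj lies at 12.99 or below in siNQO1 cells and at 14.44 or above in siCtrl cells.

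In all, 8 of the 11 rows passed the filter on low counts and were tested, and 2 of these 8 were called at an adjusted p under 0.05. Of all genes tested, 12.6% were called, 5.27% higher and 7.38% lower in siNQO1 cells, beside 1 member higher and 1 member lower. No member differed by more than 2-fold, which 0.435% of all genes did together with the adjusted p. The groups did not overlap for 4 of the 8 members (Notch1, Hes1, Hey1 and Rbpj), beside 34.2% of all genes tested. The median log2 fold change of the 8 members was 0.09, and that of all genes tested 0.01. Leaving out siNQO1 replicate 1, 2 or 3 left 0 members called, leaving out siCtrl replicate 1 or 3 left 1, and leaving out siCtrl replicate 2 gave 3.

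Ordered by FPKM, which is per length, Hes1 had the highest level in both groups. In siNQO1 cells it was followed by Rbpj and Notch1, each at a range that did not overlap the next higher one. In siCtrl cells the ranges of Hes1 (18.17–19.17 FPKM) and Rbpj (14.44–18.96 FPKM) overlapped, and Notch1 (9.03–10.2 FPKM) lay below both. Dll1, Notch2 and Jag1 formed the next tier, between 1.08 and 1.45 FPKM in siNQO1 cells and between 1.05 and 1.43 FPKM in siCtrl cells. Within this tier neighbours overlapped in siNQO1 cells, whereas in siCtrl cells Jag1 lay below Dll1 without overlap. Hey1 and Hey2 came next and overlapped each other in both groups, and Jag2 and Notch3 were last.

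The Schwann cell and glia list differed between the groups as well. Among its 5 genes tested, S100b, which encodes a calcium-binding protein of glia, was lower (log2 fold change -0.45, adjusted p = 0.00329 by edgeR). Of the mural cell list, which had 4 genes tested, Pdgfrb was higher (0.45, adjusted p = 0.016 by edgeR) and Cspg4 was lower (-0.44, adjusted p = 0.00638). This list summed to 43.9–47.2 FPKM in siNQO1 cells and 53.8–62.2 FPKM in siCtrl cells. Most of the sum came from Cspg4, with 38.87, 39.26 and 41.94 FPKM in siNQO1 cells, against 56.75, 49.63 and 58.36 FPKM in siCtrl cells. Rgs5 was below 0.1 FPKM and Acta2 at most 0.23 FPKM in every library. The chromaffin list summed to 109–119 FPKM in siNQO1 cells and 166–176 FPKM in siCtrl cells, nearly all of it from Scg2, which was lower (-0.59, adjusted p = 0.000836), whereas none of the 3 endothelial, 2 fibroblast and 1 macrophage genes tested passed. The part of these markers in the differences of Hes1 and Rbpj was not tested.

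The rest of the pathway was read from 10 lists with 104 symbols, of which 90 had a row and 76 were tested. Of these 76 genes, 8 rose, 7 fell and 61 did not pass, that is 19.7% called beside the 12.6% of all genes, and none differed by more than 2-fold. Their median log2 fold change was 0.02. Of the other receptors and ligands, only Notch4 and Dll3 were tested, and neither passed. Notch4, the receptor known from endothelium, had 12, 15 and 36 reads in siNQO1 libraries and 27, 38 and 34 in siCtrl libraries (adjusted p = 0.195 by edgeR). Of the other HES genes, Hes6, whose product is known to counteract HES1, had 11.7 ± 0.390 FPKM in siNQO1 cells and 11.01 ± 1.24 FPKM in siCtrl cells (SD, n = 3 each) and a log2 fold change of 0.10 (adjusted p = 0.549 by edgeR). Hes7, the segmentation clock repressor, had at most 26 reads in any library and did not pass (adjusted p = 0.239).

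**Figure D3:**
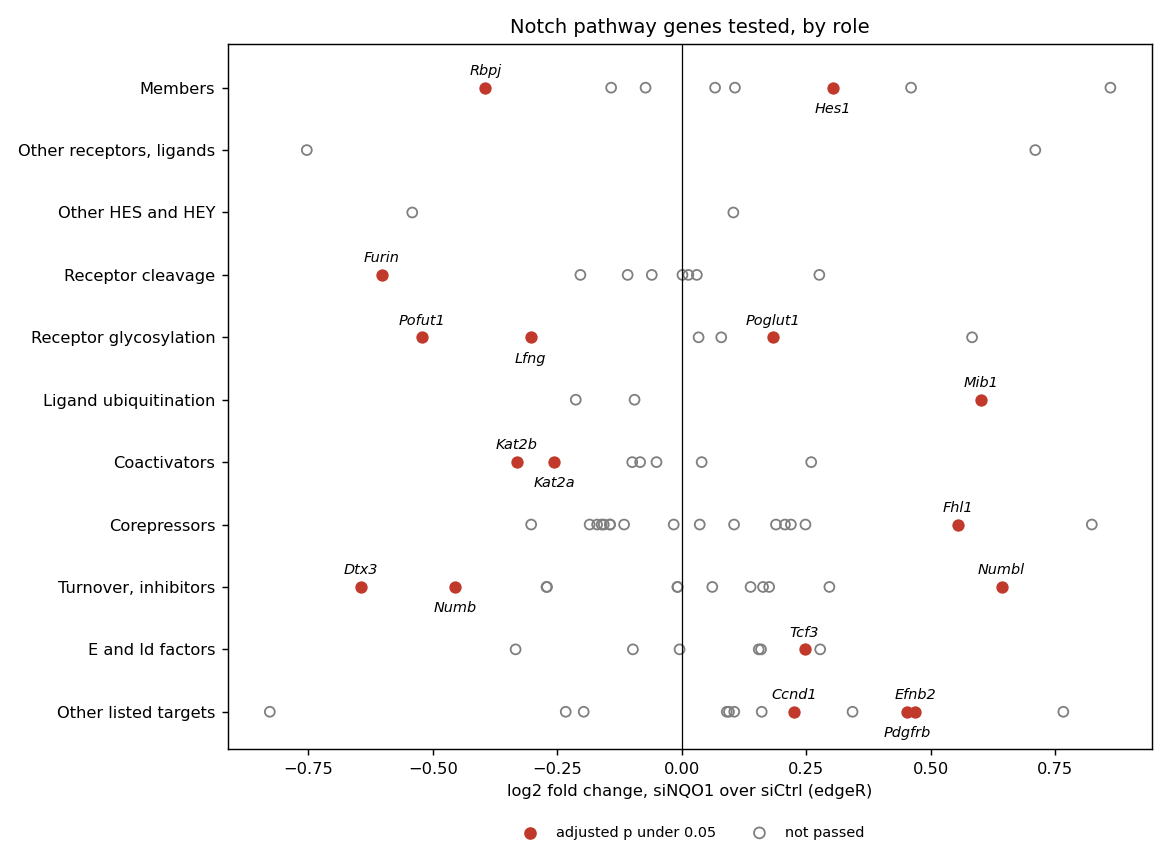
Log2 fold change (siNQO1 over siCtrl, edgeR) of the 8 members and the 76 other pathway genes tested, by role. Filled red points passed an adjusted p of 0.05, and open grey points did not. Rises and falls occur together in the glycosylation and turnover rows, and most genes lie between -0.5 and 0.5.

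Of 8 genes for receptor cleavage, only Furin fell and 7 did not pass, beside 7.38% of all genes tested lower. Furin, the convertase that cuts the receptor during its transport to the surface, had 35.24, 33.01 and 34.35 FPKM in siNQO1 cells, against 51.99, 49.1 and 56.12 FPKM in siCtrl cells. The groups were far apart, with a log2 fold change of -0.60 (standard error 0.06, adjusted p = 0.00133 by edgeR), and the call was kept in all 18 alternatives. The γ-secretase subunits Psenen, with 84.2 ± 2.41 FPKM in siNQO1 cells and 84.2 ± 5.79 FPKM in siCtrl cells, and Ncstn, with 60.2 ± 1.18 FPKM in siNQO1 cells and 59.5 ± 5.45 FPKM in siCtrl cells (SD, n = 3 each), differed by 0.01 and 0.03 on the log2 scale.

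Of 6 glycosylation genes tested, Pofut1 and Lfng fell, Poglut1 rose and 3 did not pass, beside 12.6% of all genes tested called. Pofut1, which adds O-fucose to the receptor, had 5.32, 4.93 and 5.62 FPKM in siNQO1 cells, against 8.53, 7.12 and 7.39 FPKM in siCtrl cells (log2 fold change -0.52, adjusted p = 0.00946 by edgeR), and passed in all 18 alternatives. Lfng, the fringe enzyme that extends this fucose and alters the choice of ligand, had 16.9 ± 0.695 FPKM in siNQO1 cells and 21.1 ± 0.653 FPKM in siCtrl cells (-0.30, adjusted p = 0.0123 by edgeR), with an adjusted p of 0.0553 without siNQO1 replicate 2. Poglut1, which adds O-glucose, had 34.3 ± 0.549 FPKM in siNQO1 cells and 30.5 ± 0.738 FPKM in siCtrl cells (0.18, adjusted p = 0.0292 by edgeR). Its call was lost without siNQO1 replicate 1, 2 or 3 (adjusted p = 0.105, 0.114 and 0.114) or siCtrl replicate 1 or 3 (0.0642 and 0.0948). Rfng and Xxylt1, the most abundant genes of this list that did not pass, differed by 0.03 and 0.08 on the log2 scale.

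Of the ubiquitin ligases that act on ligands, 3 were tested and Mib1 rose, beside 5.27% of all genes tested higher. Mib1, which ubiquitinates ligands before their endocytosis, had 0.83, 0.77 and 0.72 FPKM in siNQO1 cells, against 0.56, 0.53 and 0.44 FPKM in siCtrl cells (log2 fold change 0.60, adjusted p = 0.0366 by edgeR). It kept this call in 10 of 18 alternatives, and of the 6 settings with a library left out only in that without siCtrl replicate 2 (adjusted p of 0.0637 to 0.139 in the other 5). Mib2 and Neurl1b did not pass (log2 fold changes -0.09 and -0.21).

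Among nuclear cofactors, 2 of 7 coactivator genes fell and 1 of 17 corepressor genes rose. Over all genes tested, 7.38% were called lower and 5.27% higher. The histone acetyltransferase Kat2a had 24.2 ± 0.549 FPKM in siNQO1 cells and 29.1 ± 1.53 FPKM in siCtrl cells (SD, n = 3 each), with a log2 fold change of -0.26 (adjusted p = 0.0236 by edgeR). Its paralogue Kat2b had 10.1 ± 0.844 FPKM in siNQO1 cells and 12.8 ± 0.913 FPKM in siCtrl cells, with a log2 fold change of -0.33 (adjusted p = 0.043 by edgeR). Both calls were lost without siNQO1 replicate 2 or 3 or siCtrl replicate 3 (adjusted p of 0.0598 to 0.0875 for Kat2a and 0.120 to 0.165 for Kat2b). The coactivator genes Snw1 and Maml1 did not pass (0.26 and 0.04).

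The corepressor gene that rose was Fhl1, of which 1 isoform is known to bind RBPJ. It had 1.17, 1.15 and 1.31 FPKM in siNQO1 cells, against 0.80, 0.97 and 0.73 FPKM in siCtrl cells (log2 fold change 0.55, adjusted p = 0.0476 by edgeR), and the counts do not separate its isoforms. This call held in 6 of 18 alternatives, and in no setting without a library other than that without siCtrl replicate 2 (adjusted p of 0.131 to 0.185 in the other 5). Tle5 and Ctbp1, the most abundant corepressor genes, each differed by -0.14 on the log2 scale and missed the threshold.

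Receptor turnover and inhibition held the largest log2 fold changes among the pathway genes called and 2 related adaptors that moved in opposite directions. Of 12 genes tested, Numbl rose, Numb and Dtx3 fell and 9 did not pass, beside 12.6% of all genes tested called. Numbl, an endocytic adaptor related to Numb, had 27.59, 30.28 and 29.99 FPKM in siNQO1 cells, against 19.19, 18.26 and 19.36 FPKM in siCtrl cells. This is a log2 fold change of 0.64 (standard error 0.06, adjusted p = 0.000486 by edgeR). Numb, the adaptor known to inhibit Notch receptors, had 7.90, 7.61 and 8.04 FPKM in siNQO1 cells, against 11.37, 11.47 and 9.80 FPKM in siCtrl cells. On the log2 scale this is a difference of -0.46 (standard error 0.09, adjusted p = 0.0118 by edgeR).

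Dtx3, a Deltex-family ubiquitin ligase, had 22.89, 23.49 and 22.12 FPKM in siNQO1 cells, against 36.18, 33.23 and 38.58 FPKM in siCtrl cells. Its log2 fold change of -0.64 (standard error 0.07, adjusted p = 0.00147 by edgeR) was the largest fall among the pathway genes called. Numbl and Dtx3 passed in all 18 alternatives, and Numb in all but those without siNQO1 replicate 2 (adjusted p = 0.0696) or 3 (0.0557). Nedd4, a ubiquitin ligase and the most abundant gene of this list, had 254 ± 5.42 FPKM in siNQO1 cells and 209 ± 28.9 FPKM in siCtrl cells (SD, n = 3 each), which missed the threshold (log2 fold change 0.30, adjusted p = 0.0664 by edgeR). Dtx2 did not pass either (0.18, adjusted p = 0.153).

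**Figure D4:**
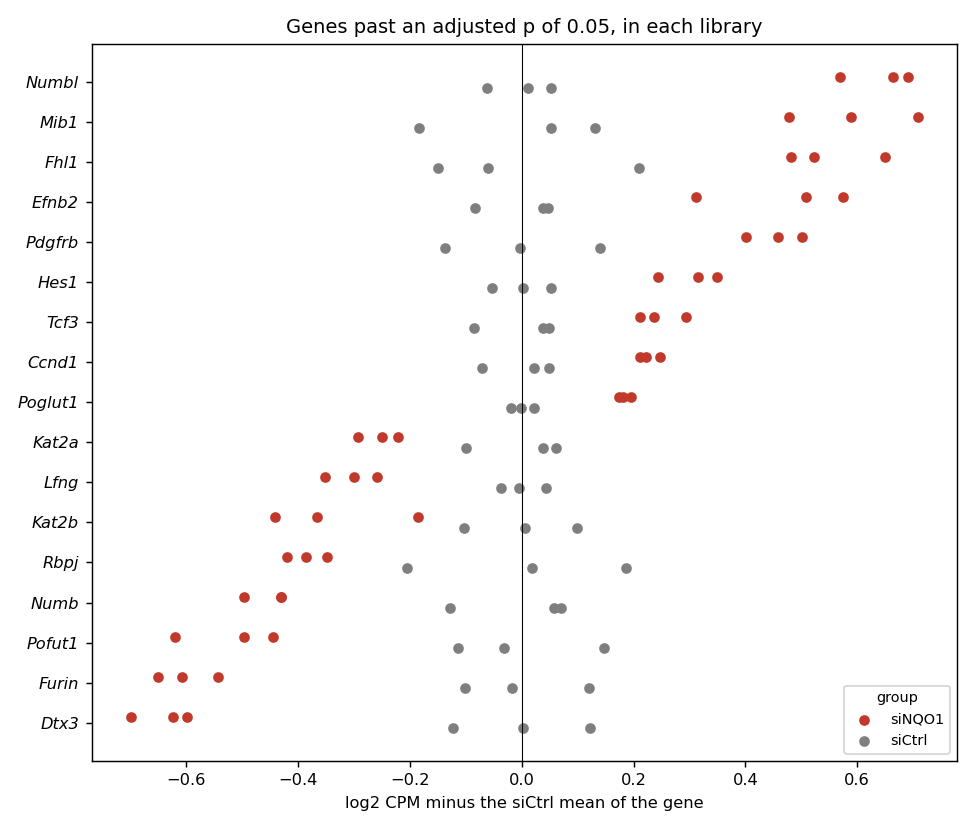
Log2 CPM (read counts scaled by library size) minus the siCtrl mean of the same gene, for the 15 pathway genes and 2 members past an adjusted p of 0.05, in each siNQO1 (red) and siCtrl (grey) library. In every row the 3 siNQO1 libraries lie apart from the 3 siCtrl libraries, with Numbl at the top and Dtx3 at the bottom.

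Of the factors that HES repressors are known to oppose and their partners, 7 were tested and Tcf3 rose. Over all genes tested, 5.27% were called higher. Tcf3, which encodes the E proteins E12 and E47, had 45.4 ± 1.47 FPKM in siNQO1 cells and 38.6 ± 1.82 FPKM in siCtrl cells (SD, n = 3 each), with a log2 fold change of 0.25 (adjusted p = 0.0217 by edgeR). Id3 and Id1, inhibitors of E proteins, did not pass. Id3 had 360 ± 10.8 FPKM in siNQO1 cells and 326 ± 19.6 FPKM in siCtrl cells, and Id1 had 110 ± 2.48 FPKM in siNQO1 cells and 119 ± 12.4 FPKM in siCtrl cells.

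Of 12 other genes listed as Notch targets, 3 rose, none fell and 9 did not pass, beside 5.27% of all genes tested higher and 7.38% lower. The log2 fold changes of this list ran between -0.83 and 0.77, both at genes that did not pass. Ccnd1, which encodes cyclin D1, was abundant, with 488 ± 4.59 FPKM in siNQO1 cells and 421 ± 15.1 FPKM in siCtrl cells (SD, n = 3 each) and a log2 fold change of 0.23 (adjusted p = 0.0307 by edgeR). Efnb2, which encodes ephrin-B2, had 2.80, 2.70 and 2.38 FPKM in siNQO1 cells, against 1.99, 1.98 and 1.78 FPKM in siCtrl cells (0.47, adjusted p = 0.0248 by edgeR). Pdgfrb, a receptor gene that also stands in the mural cell list, had 3.85, 4.0 and 3.77 FPKM in siNQO1 cells, against 3.16, 2.86 and 2.56 FPKM in siCtrl cells. All of these genes are known to be regulated by other pathways too. The most abundant targets that did not pass were Cdkn1a (log2 fold change 0.11, adjusted p = 0.256) and Nfkb2 (0.09, adjusted p = 0.430). The calls of Tcf3, Ccnd1 and Pdgfrb were lost without siNQO1 replicate 1, 2 or 3 or siCtrl replicate 3 (adjusted p of 0.0553 to 0.102), and that of Efnb2 without siNQO1 replicate 1 or 2 or siCtrl replicate 1 or 3 (0.0605 to 0.120).

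**Figure D5:**
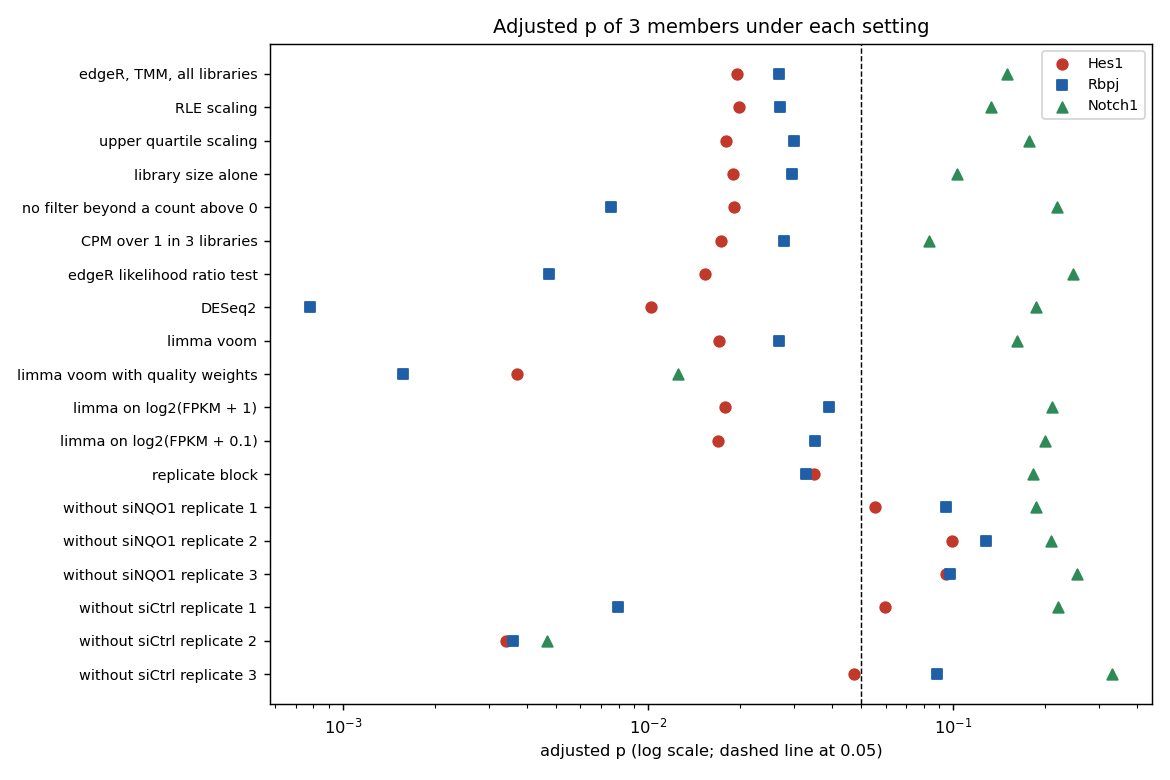
Adjusted p of Hes1, Rbpj and Notch1 under the main test (top row) and 18 alternative settings, on a log axis with a dashed line at 0.05. Hes1 and Rbpj lie left of the line in each setting with all libraries, both lie right of it without any 1 of the siNQO1 libraries, and Notch1 lies left of it in 2 settings.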

How the data were processed

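RNA of 3 siNQO1 and 3 siCtrl samples was sequenced by the authors from stranded poly(A) libraries. As the paper's methods state, trimmed reads were aligned to RGSC6 with TopHat2 and uniquely mapped reads were used, and the submitters' processing notes also name bcl2fastq and edgeR. The deposited counts are whole reads per gene, not normalized, and the FPKM values are those deposited by the authors. For the counting tool and its use of strand the status is: not given in the sources used here. Reads of a gene and of a gene overlapping it, on either strand, may therefore not be told apart. Coordinates of genes are chromosomes as the deposited tables give them, and promoters were matched by symbol to RefSeq on GRCr8.

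The test ran under R 4.3.3 in edgeR 4.0.16 (filterByExpr, TMM, glmQLFit and glmQLFTest, no block), with Benjamini-Hochberg adjustment over 12420 of 18746 genes. A standard error is the log2 fold change divided by the root of F. The common biological coefficient of variation was 0.109, and a floor of 3 reads is 0.0760–0.104 CPM. Alternatives were RLE and upper-quartile scaling, library size alone, 2 other filters, the likelihood ratio test, DESeq2 1.42.0, limma 3.58.1 voom with and without quality weights, limma on log2(FPKM + 1) and log2(FPKM + 0.1), a replicate block, and each library left out. The tests were tried on simulated counts.

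The members and lists were chosen with earlier results of these data known. All members are named, with up to 6 called genes a list and up to 2 of the highest mean FPKM that did not pass, and Gxylt1 and the markers were named beyond this rule, after their values were seen. The listed symbols without a row were not analysed here, and some listed genes are not reported here.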

Additional observations from a re-analysis of the deposited data

How the results depend on the processing

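The directions of Hes1, Rbpj, Notch1 and Notch2 were the same in all 18 alternatives, those of Hey1 and Hey2 in each alternative that tested them (they did not pass the filter of CPM over 1 in 3 libraries), and those of Jag1 and Dll1 reversed without siNQO1 replicate 1. With each library left out in turn the log2 fold change ran between -0.017 and 0.163 for Jag1 and between -0.022 and 0.139 for Dll1. The number of members called was 2 in every alternative with all libraries except voom with quality weights, which gave 3, and it ran between 0 and 3 with a library left out. The 15 pathway genes called became 35 with voom quality weights and ran between 4 and 37 with a library left out, and all 15 had the same sign in each alternative. Over all genes, 1571 calls became 3930 with voom quality weights and ran between 518 without siNQO1 replicate 2 and 4200 without siCtrl replicate 2. Leaving out a library reduces the samples of one group, and the cause of the higher counts without siCtrl replicate 2 was not tested.

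The replicate block gave 1350 calls over all genes and called the same 2 members, while 10 of the 15 pathway genes remained called, without Ccnd1, Fhl1, Kat2b, Mib1 and Poglut1. The replicate numbers were not taken as pairs, since libraries with the same number deviated from their group means with correlations of -0.038, 0.161 and 0.057. The fall of Nqo1 was called in every alternative. The Notch1 share of receptor FPKM stayed lower in siNQO1 cells with each library left out, by -0.133 to -0.819 percentage points, and the difference in the Jag1 share, 0.604 points, was -0.048 without siNQO1 replicate 1 and -0.377 without siCtrl replicate 3, and ran up to 1.75. Hey1, Hey2, Jag2 and Notch3 are limited by their low read numbers.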

Other observations

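The ratio of Hes1 to Rbpj FPKM (both Rbpj rows summed) was computed after their values had been seen, and is given as a description. It was 1.75, 1.88 and 1.84 in siNQO1 libraries and 1.25, 0.994 and 1.16 in siCtrl libraries. The ratio of Hes1 to Notch1 FPKM was 2.50, 2.62 and 2.79 in siNQO1 libraries and 1.78, 2.09 and 1.95 in siCtrl libraries. The summed FPKM of the 3 receptors over that of the 3 ligands was 3.93 ± 0.355 in siNQO1 cells and 4.57 ± 0.484 in siCtrl cells (SD, n = 3 each). The glycosyltransferase Gxylt1, which adds xylose to the O-glucose of Notch receptors, had 2.88 ± 0.0896 FPKM in siNQO1 cells and 1.94 ± 0.575 FPKM in siCtrl cells (SD, n = 3 each), and did not pass the edgeR test (log2 fold change 0.58, adjusted p = 0.0638).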
